A study of Mus musculus with 12 samples.

Results

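The genes described here are 10 imprinted mouse genes that control growth and lie outside the Dlk1-Dio3 cluster, which holds Meg3: H19, Igf2, Igf2r, Cdkn1c, Grb10, Peg3, Mest, Plagl1, Ndn and Phlda2. Every probe whose RefSeq accession a reference table of genes gives to one of them was taken, whatever its signal. This gave 15 of the 39429 probes on the array and covered 9 of the 10 genes. Of these, 12 probes of 7 genes were bright enough to be tested, out of 29607 such probes in all: in 1 group or more, each of the 3 arrays flagged them as well above background. The other 3 probes, the only ones for Grb10 and Phlda2 and 1 of 2 for Peg3, were not well above background on any of the 12 arrays. No probe carried an accession that the reference table gives to H19, but 2 probes with an accession it does not hold are described apart below.

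Imprinted genes are expressed from one parental copy, chosen by DNA methylation laid down in the germ line. In the mouse many of them set fetal and placental growth: paternally expressed genes such as Igf2, Mest and Peg3 mostly promote it, and maternally expressed ones such as Igf2r, Cdkn1c, Grb10, Phlda2 and H19 mostly restrain it. Several are active in embryonic muscle and in muscle precursor cells. Meg3, the long non-coding RNA that the sample titles name as knocked down or overexpressed, is itself imprinted and maternally expressed.

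RNA of C2C12, a mouse myoblast line that can fuse into myotubes, was hybridised to 12 single-colour Agilent arrays 72 h after transfection. The labels name 4 groups of 3 arrays: siRNA (titled as MEG3 knockdown), pcDNA3.1-MEG3 (titled as MEG3 overexpression), pcDNA3.1 (titled "pat1", a name that is not explained) and the negative control. All groups share the C2C12 line and the serum-containing growth medium, and neither the siRNA sequence nor the makeup of the negative control is given in the sources used here. The comparisons were of siRNA with the negative control, of siRNA with both plasmid groups, of pcDNA3.1-MEG3 with pcDNA3.1, and of pcDNA3.1 with the negative control. They share samples, so their results are not independent of each other.

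The labels were checked first. The brightest Meg3 probe stood at 0.464, 0.850 and 0.468% of the array's 75th percentile on siRNA arrays, at 0.411, 1.05 and 0.519% on arrays labelled pcDNA3.1-MEG3, at 18.1, 19.2 and 17.9% on arrays labelled pcDNA3.1, and at 0.902, 1.12 and 0.769% on negative control arrays. The scanner flagged it as well above background on 4 arrays, the 3 labelled pcDNA3.1 and 1 negative control array, so the Meg3 signal goes against the labels of the plasmid groups. In the negative control the signal was too low for a knockdown on siRNA arrays to be judged. Each direction given below for those groups is that of the labels as deposited. Replicates 1 and 3 of a group were counted as 1 sample, which leaves 2 samples in each group. Outside the negative control they were nearly the same measurement. In the negative control they lay at different slide positions and differed more, as described with the processing below. The negative control arrays, the siRNA arrays and the plasmid arrays shared no scan time. They may have lain on separate slides, but the slide of an array could not be read. Except between the plasmid groups, scan and group therefore cannot be told apart. The 75th percentile of the signal was 1168 to 2266, and 61.2 to 75.8% of the probes were well above background on an array.

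Differentiation markers differed between the groups, most on siRNA arrays. All 13 genes of a list of myotube markers, such as Myog, Myh3 and Actc1, were called higher on siRNA arrays than on negative control arrays, with a median log2 difference of 3.99, and 12 of 13 were called higher than on plasmid arrays. Of the same 13, 5 were called higher and 1 lower on arrays labelled pcDNA3.1 against those of the negative control (8 and 1 unadjusted), with a median of 0.91. The summed signal of the 12 of them measured on every array was 6018 to 6580% of the 75th percentile on siRNA arrays, 388 to 389% on arrays labelled pcDNA3.1-MEG3, 313 to 329% on arrays labelled pcDNA3.1 and 770.0 to 910.4% on negative control arrays. Of 8 myoblast markers, 7, 7, 6 and 8 were well above background on all 3 arrays of these groups, in the same order. The same held for 5, 7, 6 and 7 of 7 fibroblast markers, 4, 5, 4 and 6 of 6 adipocyte markers, and 3, 4, 4 and 4 of 4 macrophage markers. Detection alone therefore does not tell the cell type. Over all probes, 7.29% were called higher and 4.73% lower on siRNA arrays against the negative control, and 10.4% and 8.89% against the plasmid groups. For pcDNA3.1 against the negative control these shares were 10.5% and 6.56%. Of the 8 myoblast markers, 3 were called higher and 2 lower on siRNA arrays against the negative control. Of 7 fibroblast markers 0 were called in either direction by limma on siRNA arrays against the negative control (0 higher and 1 lower unadjusted), of 6 adipocyte markers 1 was called higher and 0 lower, and of 4 macrophage markers on the array 1 higher and 0 lower. Against the plasmid groups, 4 myoblast markers were called higher and 1 lower on siRNA arrays (median 0.92), 3 fibroblast markers higher and 0 lower, 2 adipocyte markers higher and 0 lower, and 1 macrophage marker higher and 0 lower. For pcDNA3.1 against the negative control, 0 myoblast markers were called higher and 2 lower by limma (0 and 3 unadjusted), 0 fibroblast markers higher and 2 lower, and 1 adipocyte marker higher and 1 lower. The part of differentiation and of these cell types in the results on siRNA arrays and on arrays labelled pcDNA3.1 was not tested, and in RNA of whole cultures a change in the share of cells of a kind and a change in RNA per cell cannot be told apart.

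Promoters are shown for 5 members that were called by at least 1 probe in some comparison, 300 bases each from RefSeq (build GRCm38.p6), running from 250 bases before to 50 after the annotated start. The RefSeq promoter table held 14 promoters of 8 of the 10 genes, with none for H19 or for Cdkn1c, which was also called. Where a gene had several promoters, the one with the highest GC content is printed. Capitals mark every CANNTG, the E-box that factors of the MyoD family and many other basic helix-loop-helix proteins can bind. That motif reads the same on both strands and was present in 72.3% of the 32851 promoters in the table.
Igf2 promoter (chr7:142658755-142659054, minus strand): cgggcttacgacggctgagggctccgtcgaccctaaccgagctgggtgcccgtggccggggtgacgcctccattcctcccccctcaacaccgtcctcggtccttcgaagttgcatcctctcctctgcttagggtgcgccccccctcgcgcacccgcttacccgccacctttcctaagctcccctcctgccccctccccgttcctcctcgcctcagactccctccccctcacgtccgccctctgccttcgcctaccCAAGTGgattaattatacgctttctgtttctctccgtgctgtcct
Igf2r promoter (chr17:12769657-12769956, minus strand): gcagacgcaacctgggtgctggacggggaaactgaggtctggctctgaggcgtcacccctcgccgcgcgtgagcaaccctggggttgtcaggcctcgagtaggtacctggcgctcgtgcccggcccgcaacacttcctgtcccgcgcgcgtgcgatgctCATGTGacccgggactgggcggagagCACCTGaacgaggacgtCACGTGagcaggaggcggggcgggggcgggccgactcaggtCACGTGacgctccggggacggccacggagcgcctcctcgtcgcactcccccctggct
Plagl1 promoter (chr10:13090582-13090881, plus strand): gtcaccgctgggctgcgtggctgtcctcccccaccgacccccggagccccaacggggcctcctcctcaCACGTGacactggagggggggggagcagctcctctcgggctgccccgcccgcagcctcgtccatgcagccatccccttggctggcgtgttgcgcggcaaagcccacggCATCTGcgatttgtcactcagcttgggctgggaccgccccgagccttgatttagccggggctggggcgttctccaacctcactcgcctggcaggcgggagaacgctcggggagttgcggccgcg
Mest promoter (chr6:30737800-30738099, plus strand): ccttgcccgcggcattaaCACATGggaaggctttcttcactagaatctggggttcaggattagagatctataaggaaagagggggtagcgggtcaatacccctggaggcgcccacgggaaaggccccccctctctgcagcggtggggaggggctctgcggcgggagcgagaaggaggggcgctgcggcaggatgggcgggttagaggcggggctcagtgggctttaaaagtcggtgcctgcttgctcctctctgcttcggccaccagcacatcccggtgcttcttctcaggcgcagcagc
Ndn promoter (chr7:62348027-62348326, plus strand): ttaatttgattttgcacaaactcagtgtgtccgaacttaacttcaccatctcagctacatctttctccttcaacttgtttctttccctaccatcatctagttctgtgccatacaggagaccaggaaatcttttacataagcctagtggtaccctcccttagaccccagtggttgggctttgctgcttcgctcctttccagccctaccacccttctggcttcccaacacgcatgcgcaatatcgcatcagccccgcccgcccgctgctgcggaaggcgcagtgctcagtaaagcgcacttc
The GC content of these windows was 64.7% for Igf2, 70.7% for Igf2r, 70.7% for Plagl1, 62.7% for Mest and 51.0% for Ndn. They held 1, 4, 2, 1 and 0 E-boxes, in that order. The narrower form CAGCTG, counted among the E-boxes too, was in 2 of the 14 member promoters, those of Phlda2 and of another start of Mest, and in 16.3% of all promoters. GGGGCCCC, a motif reported for the zinc finger protein encoded by Plagl1, was in 1 of the 14, that of Peg3, and in 1.08% of all. A match is only a description of the letters in the window.

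Signals below are percentages of each array's 75th percentile on the linear scale, with replicates 1, 2 and 3 in that order, and compare 1 probe between arrays, not probes with each other. Differences are on the log2 scale with the standard error (SE) of 1 limma fit over all probes and the Benjamini-Hochberg adjusted p over all of them; a probe was called below 0.05, and a gene by its brightest probe. By this rule 2 of 7 tested genes were called higher and 0 lower on siRNA arrays against the negative control, 3 higher and 0 lower on siRNA arrays against both plasmid groups, 0 in either direction between the plasmid groups, and 2 higher and 0 lower on arrays labelled pcDNA3.1 against those of the negative control. By probe, the 12 tested gave 4, 3, 0 and 3 called higher and 0 called lower in each of the 4, and 5, 5, 0 and 6 higher and 0 lower at an unadjusted p below 0.05. The 6 include Peg3, which was bright enough to be tested only through the plasmid groups, so its place there was in part set in advance. Over all probes, 7.29% were called higher and 4.73% lower on siRNA arrays against the negative control, 10.4% and 8.89% on siRNA arrays against both plasmid groups, 0% and 0.00676% between the plasmid groups, and 10.5% and 6.56% on arrays labelled pcDNA3.1 against those of the negative control. The arrays of the groups did not overlap for 44.8% of all probes for siRNA against the negative control, 50.2% for siRNA against both plasmid groups, 65.1% between the plasmid groups and 59% for pcDNA3.1 against the negative control, so a lack of overlap alone is common. Of the probes called in a comparison, 60.6% were higher on siRNA arrays against the negative control (38.8% with median centring), 53.9% on siRNA arrays against the plasmid groups (77.0% with median centring, 67.2% with quantile normalisation) and 61.6% on arrays labelled pcDNA3.1 against those of the negative control (18.6%, 45.0% and, in the deposited series table, 44.6%). Both member genes called against the negative control on siRNA arrays were lost with median centring, and with quantile normalisation, median centring and the deposited series table those called on arrays labelled pcDNA3.1 gave way to 1 gene called lower, Igf2.

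**Figure D1:**
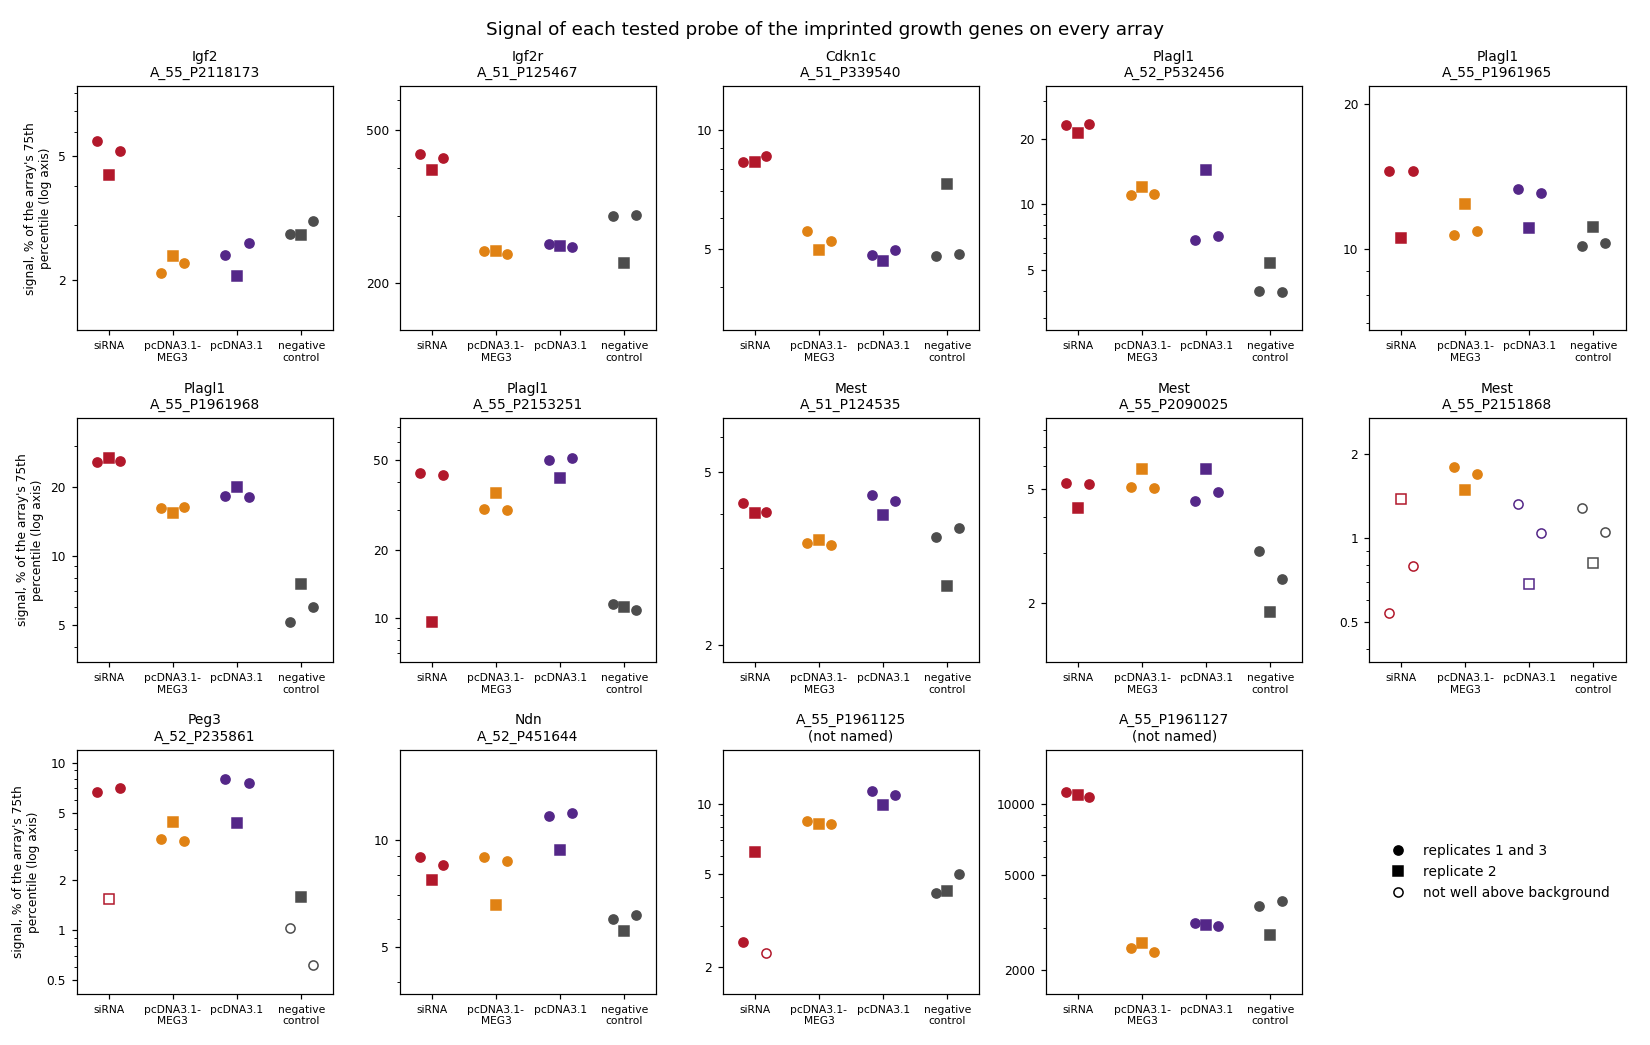
Signal of the 12 tested probes of imprinted growth genes, and of 2 probes left unnamed, on every array, as a percentage of the array's 75th percentile on a log axis. Circles are replicates 1 and 3, squares replicate 2, and open symbols arrays where the probe was not well above background. Igf2 and Igf2r stood higher on all 3 siRNA arrays than on every other array, while the Plagl1 probe A_55_P2153251 and Peg3 differed several-fold between siRNA replicate 2 and the other siRNA arrays.

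Igf2, the insulin-like growth factor that acts through the type 1 receptor and is made by differentiating myoblasts, rose on siRNA arrays against both the negative control and the plasmid groups. Its 1 probe, A_55_P2118173 on chromosome 7, measured 5.61, 4.34 and 5.19% on siRNA arrays. It measured 2.09, 2.38 and 2.27% on arrays labelled pcDNA3.1-MEG3, 2.41, 2.06 and 2.62% on arrays labelled pcDNA3.1, and 2.80, 2.79 and 3.08% on negative control arrays. The lowest siRNA array lay above the highest array of every other group. Against the plasmid groups Igf2 was 2.13-fold higher (log2 difference 1.09, SE 0.15, adjusted p = 0.00794 in limma). Against the negative control it was 1.69-fold higher (log2 difference 0.76, SE 0.18, adjusted p = 0.0480). The call against the plasmid groups held when any 1 sample was left out, but the difference was 0.54 with an adjusted p of 0.0805 after normexp background correction. The call against the negative control was lost in 8 of 15 alternative settings, among them without negative control replicate 2 (0.72, adjusted p = 0.0636), without siRNA replicates 1 and 3 (0.60, adjusted p = 0.152), with median centring (0.57, adjusted p = 0.0864), with normexp (0.52, adjusted p = 0.152) and where only the groups compared were fitted (0.76, adjusted p = 0.254).

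Between the plasmid groups the Igf2 values overlapped, with a log2 difference of 0.00 (SE 0.18, adjusted p = 0.998). On arrays labelled pcDNA3.1 the difference from the negative control was -0.33 (SE 0.18, adjusted p = 0.231), with all 3 arrays below all 3 negative control arrays. That difference was called with quantile normalisation (-0.79, adjusted p = 0.0194), median centring (-0.78, adjusted p = 0.0245) and in the deposited series table (-0.79, adjusted p = 0.0172), and it was 0.04 with normexp.

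Igf2r encodes the cation-independent mannose 6-phosphate receptor, which carries IGF2 to the lysosome for degradation. Its probe A_51_P125467 on chromosome 17, printed 10 times on the array, stood at 435, 394 and 423% on siRNA arrays, at 243, 243 and 239% on arrays labelled pcDNA3.1-MEG3, at 253, 249.7 and 248% on arrays labelled pcDNA3.1, and at 300.3, 226 and 300.5% on negative control arrays. The siRNA arrays lay above all others. Igf2r was 1.67-fold higher on siRNA arrays than on plasmid arrays (log2 difference 0.74, SE 0.15, adjusted p = 0.0230). Its difference from the negative control was 0.66 (SE 0.17, adjusted p = 0.0631), and that missed the threshold. The call against the plasmid groups was lost when any 1 of the 6 samples was left out, with differences of 0.68 to 0.80 and adjusted p-values of 0.0515 to 0.0901. The difference from the negative control was called without either negative control sample (0.86, adjusted p = 0.00689 without replicates 1 and 3; 0.45, adjusted p = 0.0258 without replicate 2).

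Grb10, an adaptor that binds the insulin and IGF1 receptors and dampens their signalling, could not be followed. Its 1 probe lay at 0.236 to 0.370% on siRNA arrays, 0.186 to 0.200% on arrays labelled pcDNA3.1-MEG3, 0.206 to 0.278% on arrays labelled pcDNA3.1 and 0.157 to 0.247% on negative control arrays, not well above background on any. H19, the maternally expressed non-coding RNA beside Igf2, had no probe under an accession that the reference table gives to it.

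A pair of probes carried 1 accession that the reference table does not hold. Whether it is an older H19 record could not be settled from the tables used here, so both are given by probe name, were not counted among the members and are read as no gene. If it is, H19 was on the array, and the counts and medians of members leave it out. Probe A_55_P1961127 stood at 11287, 10880 and 10699% on siRNA arrays, 2479, 2595 and 2365% on arrays labelled pcDNA3.1-MEG3, 3139, 3079 and 3054% on arrays labelled pcDNA3.1, and 3708, 2802 and 3903% on negative control arrays. It was 3.93-fold higher on siRNA arrays than on plasmid arrays (log2 difference 1.97, SE 0.15, adjusted p = 0.00120) and 3.35-fold higher than on negative control arrays (1.74, SE 0.18, adjusted p = 0.00474), with no overlap of the arrays. The call against the negative control was lost in 1 of 15 alternative settings, and that against the plasmid groups in 0 of 17. Probe A_55_P1961125 stood at 2.56, 6.24 and 2.31% on siRNA arrays, 8.44, 8.25 and 8.25% on arrays labelled pcDNA3.1-MEG3, 11.4, 9.95 and 10.96% on arrays labelled pcDNA3.1, and 4.15, 4.24 and 5.01% on negative control arrays. It differed from the plasmid groups by -1.26 (SE 0.36, adjusted p = 0.0603) and from the negative control by -0.18 (SE 0.42, adjusted p = 0.832), and it was called in neither.

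Growth restraint by the cell cycle is the role of Cdkn1c, which encodes the cyclin-dependent kinase inhibitor p57Kip2 and accompanies cell cycle exit of muscle precursors. Its probe A_51_P339540 on chromosome 7 stood at 8.31, 8.30 and 8.63% on siRNA arrays. It stood at 5.55, 4.97 and 5.25% on arrays labelled pcDNA3.1-MEG3, at 4.84, 4.67 and 4.98% on arrays labelled pcDNA3.1, and at 4.80, 7.30 and 4.87% on negative control arrays. The siRNA arrays lay above all others, with negative control replicate 2 closest to them. Cdkn1c was 1.68-fold higher on siRNA arrays than on plasmid arrays (log2 difference 0.75, SE 0.19, adjusted p = 0.0409), and its difference from the negative control was 0.50 (SE 0.21, adjusted p = 0.195). The call against the plasmid groups was lost when any 1 sample was left out (0.72 to 0.78, adjusted p = 0.100 to 0.133). Without negative control replicate 2, the difference from the negative control was 0.80 and was called (adjusted p = 0.00909). Phlda2, which restrains placental growth, lay at 0.238 to 0.405% on siRNA arrays, 0.185 to 0.292% on arrays labelled pcDNA3.1-MEG3, 0.203 to 0.268% on arrays labelled pcDNA3.1 and 0.163 to 0.259% on negative control arrays, not well above background on any.

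**Figure D2:**
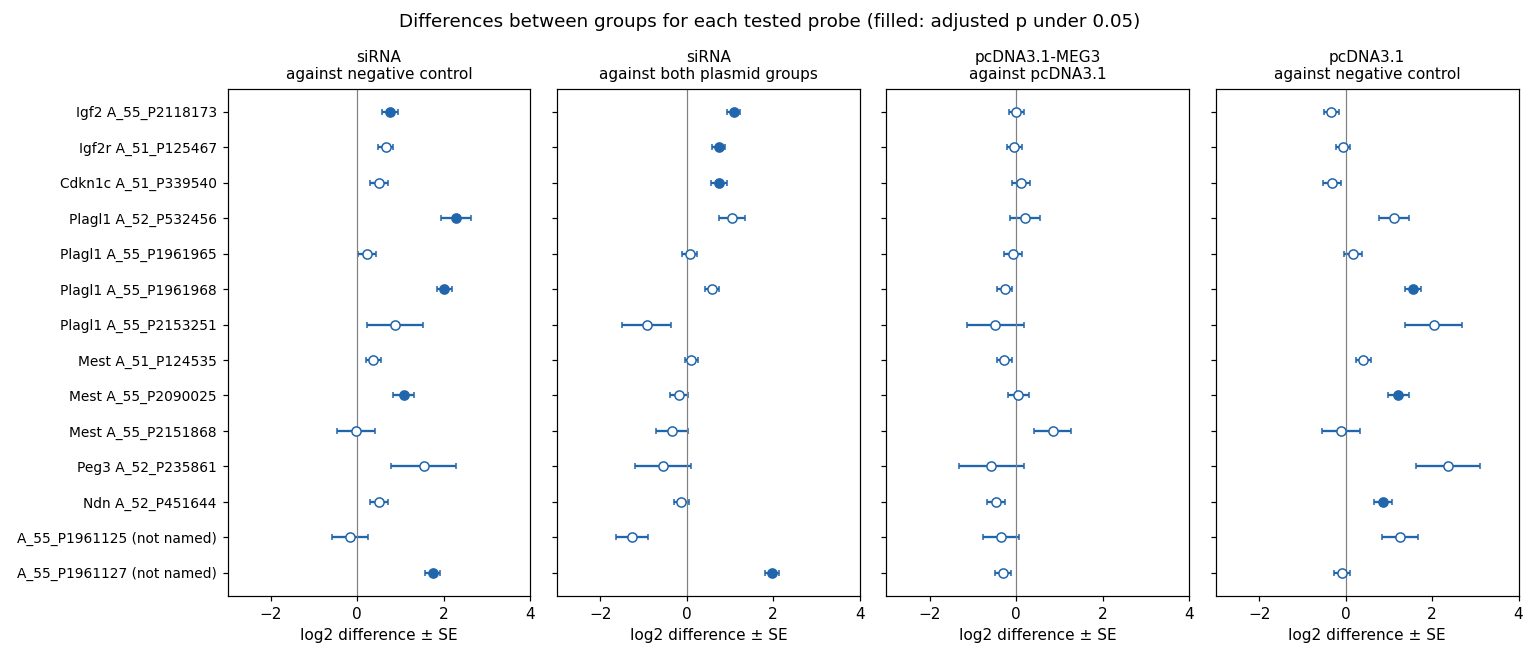
Log2 differences with their standard error for the 12 tested member probes and the 2 unnamed probes in the 4 comparisons, filled where the adjusted p was below 0.05. Igf2, Igf2r and Cdkn1c are filled to the right of 0 for siRNA against both plasmid groups, and no probe is filled between the plasmid groups.

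Plagl1, also called Zac1, encodes a zinc finger transcription factor that can act on other imprinted genes, Igf2 among them. It had 4 probes on chromosome 10 that did not give 1 answer. Probe A_55_P1961968 measured 25.6, 26.6 and 25.8% on siRNA arrays, 16.2, 15.4 and 16.3% on arrays labelled pcDNA3.1-MEG3, 18.2, 20.0 and 18.1% on arrays labelled pcDNA3.1, and 5.16, 7.54 and 5.96% on negative control arrays. The negative control arrays were the lowest and the siRNA arrays the highest, with no overlap between any of the groups. This probe rose 4.05-fold on siRNA arrays against the negative control (log2 difference 2.02, SE 0.18, adjusted p = 0.00325) and 2.95-fold on arrays labelled pcDNA3.1 against those of the negative control (1.56, SE 0.18, adjusted p = 0.00649). The call on arrays labelled pcDNA3.1 was lost without pcDNA3.1 replicates 1 and 3 (1.63, adjusted p = 0.0543), that on siRNA arrays was lost where only the groups compared were fitted (adjusted p = 0.0875), and the difference of siRNA from the plasmid groups was 0.59 (SE 0.16, adjusted p = 0.0510).

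Probe A_52_P532456 of Plagl1 measured 23.2, 21.4 and 23.4% on siRNA arrays, 11.02, 12.02 and 11.2% on arrays labelled pcDNA3.1-MEG3, 6.86, 14.4 and 7.16% on arrays labelled pcDNA3.1, and 3.97, 5.36 and 3.94% on negative control arrays. The siRNA arrays were again the highest and the negative control arrays the lowest. It rose 4.85-fold on siRNA arrays against the negative control (2.28, SE 0.35, adjusted p = 0.0163), a call that was lost where only the groups compared were fitted (adjusted p = 0.0745). The differences were 1.05 (SE 0.30, adjusted p = 0.0621) for siRNA against the plasmid groups and 1.12 (SE 0.35, adjusted p = 0.0789) for arrays labelled pcDNA3.1 against those of the negative control. Without pcDNA3.1 replicate 2, the difference of siRNA from the plasmid groups was 1.31 and was called (adjusted p = 0.0258).

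The brightest Plagl1 probe, A_55_P2153251, by which the gene was scored, was not called in any comparison. It measured 43.9, 9.55 and 42.8% on siRNA arrays, 30.3, 35.6 and 30.02% on arrays labelled pcDNA3.1-MEG3, 50.01, 41.4 and 51.0% on arrays labelled pcDNA3.1, and 11.5, 11.1 and 10.9% on negative control arrays. siRNA replicate 2 lay at the level of the negative control while the other siRNA arrays lay near the plasmid arrays. The log2 difference of siRNA from the negative control was 0.87 (SE 0.66, adjusted p = 0.447), 1.96 without siRNA replicate 2 (adjusted p = 0.00742) and -0.22 without siRNA replicates 1 and 3. The difference of siRNA from the plasmid groups was -0.93 (SE 0.57, adjusted p = 0.265), and -2.02 (adjusted p = 0.00240) without siRNA replicates 1 and 3. On arrays labelled pcDNA3.1 the difference from the negative control was 2.04 (SE 0.66, adjusted p = 0.0838). Probe A_55_P1961965, at 10.1 to 14.5% over all arrays, had a difference of 0.21 (SE 0.21, adjusted p = 0.561) for siRNA against the negative control and was called in no comparison.

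Peg3, a zinc finger protein with roles in growth, maternal behaviour and stem cells including those of muscle, had 1 probe that could be tested, A_52_P235861 on chromosome 7. It measured 6.67, 1.54 and 7.09% on siRNA arrays, 3.51, 4.42 and 3.41% on arrays labelled pcDNA3.1-MEG3, 7.94, 4.37 and 7.52% on arrays labelled pcDNA3.1, and 1.03, 1.58 and 0.621% on negative control arrays. The well-above-background flag was set on 2 of 3 siRNA arrays, all plasmid arrays and 1 of 3 negative control arrays. The probe thus passed the filter on dim probes through the plasmid groups alone. Its higher signal there than in the negative control was in part set by the filter and is not read as a result. The difference of arrays labelled pcDNA3.1 from the negative control was 2.37 (SE 0.75, adjusted p = 0.0800). The difference of siRNA from the negative control was 1.53 (SE 0.75, adjusted p = 0.242), and 2.61 without siRNA replicate 2, the same array on which the brightest Plagl1 probe was low. Most negative control values were unflagged, so the size of these differences is uncertain. The other Peg3 probe stood at 0.201 to 0.470% over all arrays, not well above background on any.

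Mest, a paternally expressed gene for a protein of the alpha/beta hydrolase fold that is used as a marker of growing mesoderm and fat, had 3 probes on chromosome 6. The brightest, A_55_P2090025, measured 5.26, 4.30 and 5.21% on siRNA arrays, 5.07, 5.85 and 5.03% on arrays labelled pcDNA3.1-MEG3, 4.52, 5.89 and 4.88% on arrays labelled pcDNA3.1, and 3.03, 1.87 and 2.43% on negative control arrays. The negative control stood below every other array, and the other 3 groups overlapped. Mest was 2.10-fold higher on siRNA arrays (log2 difference 1.07, SE 0.24, adjusted p = 0.0427) and 2.33-fold higher on arrays labelled pcDNA3.1 (1.22, SE 0.24, adjusted p = 0.0251), each against the negative control. With median centring neither was called (0.89, adjusted p = 0.0848 for siRNA; 0.78, adjusted p = 0.0815 for pcDNA3.1), nor with normexp (0.57, adjusted p = 0.159; 0.53, adjusted p = 0.138). The call for siRNA was lost in 9 of 15 alternative settings, also without negative control replicate 2 (0.80, adjusted p = 0.0579), without siRNA replicates 1 and 3 (0.93, adjusted p = 0.124) and where only the groups compared were fitted (1.07, adjusted p = 0.227). That for pcDNA3.1 was lost in 6 of 15, also without either pcDNA3.1 sample (1.38, adjusted p = 0.0980 without replicates 1 and 3; 1.06, adjusted p = 0.127 without replicate 2).

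The other Mest probes were called in none of the 4 comparisons. Probe A_51_P124535, printed 10 times, measured 4.25, 4.03 and 4.04% on siRNA arrays, 3.44, 3.49 and 3.40% on arrays labelled pcDNA3.1-MEG3, 4.43, 3.99 and 4.29% on arrays labelled pcDNA3.1, and 3.54, 2.74 and 3.72% on negative control arrays. Its differences from the negative control were 0.37 for siRNA (SE 0.17, adjusted p = 0.222) and 0.40 for pcDNA3.1 (SE 0.17, adjusted p = 0.157). Without negative control replicates 1 and 3 they were 0.58 for siRNA and 0.61 for pcDNA3.1, and without negative control replicate 2 they were 0.17 and 0.20. The difference for pcDNA3.1 was -0.083 with quantile normalisation, -0.043 with median centring and -0.085 in the deposited series table. Probe A_55_P2151868 had that flag only on the 3 arrays labelled pcDNA3.1-MEG3, at 1.80, 1.49 and 1.70%. It passed the filter on dim probes through that group alone, so its higher signal there was set by the filter and no comparison is read from it.

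Ndn encodes necdin, a MAGE family protein that is expressed during muscle differentiation. Its probe A_52_P451644 on chromosome 7 measured 8.94, 7.74 and 8.49% on siRNA arrays, 8.95, 6.57 and 8.72% on arrays labelled pcDNA3.1-MEG3, 11.7, 9.38 and 11.9% on arrays labelled pcDNA3.1, and 5.99, 5.54 and 6.15% on negative control arrays. Every array of the other groups lay above the negative control arrays. Ndn was 1.81-fold higher on arrays labelled pcDNA3.1 than on negative control arrays (0.86, SE 0.21, adjusted p = 0.0422), a call that was lost when any 1 of the 4 samples was left out (0.69 to 1.03, adjusted p = 0.0510 to 0.222) and with median centring (0.41, adjusted p = 0.179) or quantile normalisation (0.45, adjusted p = 0.145). The difference for siRNA from the negative control was 0.50 (SE 0.21, adjusted p = 0.179). Between the plasmid groups Ndn had a difference of -0.47 (SE 0.21, adjusted p = 0.460), with no overlap of the arrays.

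Between the plasmid groups, the arrays of 6 of the 12 member probes did not overlap, nor did those of 65.1% of all probes, while 0 members were called and 0 passed an unadjusted p of 0.05, and 0.00676% of all probes were called lower and 0% higher. The 6 include Mest probe A_55_P2151868, whose higher signal on arrays labelled pcDNA3.1-MEG3 was set by the filter on dim probes. The median over the 7 genes was -0.05, beside -0.14 over all probes. The other medians over the 7 genes were 0.76 for siRNA against the negative control, -0.12 for siRNA against the plasmid groups and 0.86 for pcDNA3.1 against the negative control, beside 0.05, -0.12 and 0.19 over all probes. They include Peg3 (2.37 for pcDNA3.1 against the negative control), whose higher signal on plasmid arrays was in part set by the filter on dim probes. The median of 0.86 is therefore not read as a result. Within the first and the second scan of the plasmid arrays, the difference of pcDNA3.1-MEG3 from pcDNA3.1 was 0.00 and -0.21 for Igf2, -0.05 and -0.05 for Igf2r, 0.14 and 0.08 for Cdkn1c, and -0.45 and -0.45 for Ndn.

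Other imprinted genes outside Dlk1-Dio3 gave 45 tested of 52 listed. Of these, 5 were called higher and 0 lower on siRNA arrays against the negative control (9 and 3 at an unadjusted p below 0.05), 7 higher and 2 lower against the plasmid groups, 0 and 0 between the plasmid groups (3 and 2 unadjusted), and 2 and 2 on arrays labelled pcDNA3.1 against those of the negative control. The medians were 0.19, -0.02, -0.20 and 0.20, in that order, beside 0.05, -0.12, -0.14 and 0.19 over all probes. Over all probes, 7.29% were called higher and 4.73% lower on siRNA arrays against the negative control, and 10.4% and 8.89% against the plasmid groups. The shares were 0% and 0.00676% between the plasmid groups, and 10.5% and 6.56% for pcDNA3.1 against the negative control. Against the negative control the siRNA arrays were higher in Ddc, the decarboxylase that makes dopamine and serotonin (2.82, SE 0.27, adjusted p = 0.00374), in the tetraspanin gene Tspan32 (1.68, SE 0.20, adjusted p = 0.00695) and in the Polycomb-related gene Sfmbt2 (1.26, SE 0.16, adjusted p = 0.00937).

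Against the plasmid groups, Slc38a4, an amino acid transporter gene, was at least 4.93-fold higher on siRNA arrays (adjusted p = 0.00184), where 3 of 3 arrays carried the flag, against 0 of 6 plasmid arrays. Ddc (2.53, SE 0.23, adjusted p = 0.00200) and Sfmbt2 (1.04, SE 0.14, adjusted p = 0.00655) rose, while Commd1 (-0.75, SE 0.13, adjusted p = 0.0152) and Slc22a18 (-0.56, SE 0.13, adjusted p = 0.0321) fell. On arrays labelled pcDNA3.1 against those of the negative control, Mkrn3 (1.07, SE 0.19, adjusted p = 0.0194) and Tspan32 (0.78, SE 0.20, adjusted p = 0.0473) rose, Dcn, the proteoglycan decorin, fell (-0.50, SE 0.13, adjusted p = 0.0479), and Slc38a4 was at least 2.31-fold lower (adjusted p = 0.0257). Slc38a4 passed the filter on dim probes through the siRNA and negative control groups alone. Its differences from plasmid arrays were therefore in part set by the filter, and the counts above include it. The myotube markers given above differed in the same comparisons, and their part was not tested. Genes of this list and of the lists below were not followed under the alternative settings, so whether their calls hold there is not known.

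**Figure D3:**
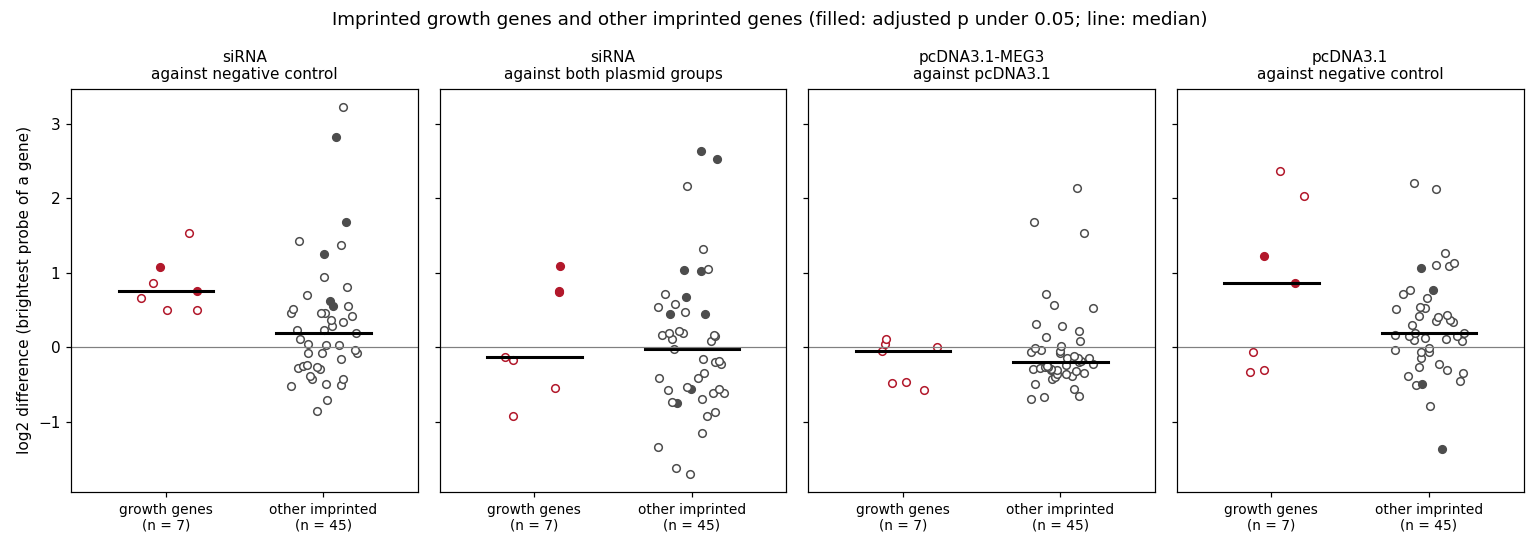
Log2 differences of the 7 tested imprinted growth genes and of 45 other imprinted genes in the 4 comparisons, 1 point per gene by its brightest probe, filled where called, with the median as a line. The filled growth genes lie above 0 in the panels for siRNA and for pcDNA3.1, and the medians of the growth genes are 0.76, -0.12, -0.05 and 0.86. These medians include Peg3, whose higher signal on plasmid arrays was in part set by the filter on dim probes.

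The distal chromosome 7 domain holds 4 of the members, H19, Igf2, Cdkn1c and Phlda2. Of 15 members and listed genes there, 14 had a probe named by accession and 12 were tested. On siRNA arrays against the plasmid groups, Igf2 (1.09), Tspan32 (1.02, SE 0.17, adjusted p = 0.0132) and Cdkn1c (0.75) were higher and Slc22a18 (-0.56) lower. Their neighbours Kcnq1ot1, the antisense RNA that silences the Cdkn1c domain on the paternal copy (-0.34, adjusted p = 0.261), Ascl2 (-0.41, adjusted p = 0.345), Th (-0.74, adjusted p = 0.167), Cd81 (0.22, adjusted p = 0.270), Osbpl5 (0.54, adjusted p = 0.0605), Tssc4 (-0.41, adjusted p = 0.0681), Ins2 (-0.62, adjusted p = 0.152) and Nap1l4 (-0.58, adjusted p = 0.328) did not pass. Against the negative control, Tspan32 (1.68) and Igf2 (0.76) were the members of the domain called on siRNA arrays.

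Genes around IGF2 were read through 19 tested of 21 receptors, binding proteins, adaptors and related genes, among them Igf1, itself a ligand. Against the negative control 0 were higher and 2 lower on siRNA arrays (0 and 2 unadjusted): the binding proteins Igfbp4 (-2.69, SE 0.36, adjusted p = 0.0108, flagged as above on 1 of 3 siRNA arrays) and Igfbp7 (-2.64, SE 0.38, adjusted p = 0.0136). Against the plasmid groups 5 were higher and 2 lower: Igfbp7 (2.32, SE 0.33, adjusted p = 0.00808), Igfbp2 (1.73, SE 0.20, adjusted p = 0.00429) and Igf1 (1.50, SE 0.30, adjusted p = 0.0215) rose most, and Igfbp4 (-2.50, SE 0.31, adjusted p = 0.00525) and Igf2bp3, an RNA-binding protein of Igf2 mRNA (-2.35, SE 0.19, adjusted p = 0.00129), fell. Igfbp7 thus went in opposite directions against the 2 sets of arrays. Between the plasmid groups 0 were called in either direction (3 higher and 1 lower unadjusted). Over all probes, 7.29% were called higher and 4.73% lower on siRNA arrays against the negative control, and 10.4% and 8.89% against the plasmid groups.

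On arrays labelled pcDNA3.1 against those of the negative control, 2 of the 19 were higher and 5 lower. Over all probes these shares were 10.5% and 6.56%. Igf2bp3 (2.11, SE 0.22, adjusted p = 0.00455) and Igfbp5 (0.63, SE 0.16, adjusted p = 0.0482) rose, and Igfbp7 (-4.69, SE 0.38, adjusted p = 0.00212), Igfbp2 (-2.83, SE 0.23, adjusted p = 0.00217) and Igf1 (-1.63, SE 0.34, adjusted p = 0.0291) fell most. The type 1 receptor Igf1r, through which IGF2 signals, was called in no comparison, with differences of -0.32, -0.01, -0.35 and -0.14 for siRNA against the negative control, siRNA against the plasmid groups, pcDNA3.1-MEG3 against pcDNA3.1 and pcDNA3.1 against the negative control.

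The machinery that keeps imprints gave 21 tested of 24 genes. On siRNA arrays against the negative control 4 were higher and 1 lower: Uhrf1 (1.28, SE 0.14, adjusted p = 0.00608), which brings DNA methyltransferase 1 to newly copied DNA, Hells (0.87, SE 0.20, adjusted p = 0.0425) and Dnmt1 itself (0.70, SE 0.16, adjusted p = 0.0453) rose most, and Arid4b fell (-1.14, SE 0.20, adjusted p = 0.0238). Against the plasmid groups 4 were higher and 0 lower (6 and 1 unadjusted), led by the de novo methyltransferase Dnmt3a (1.20, SE 0.17, adjusted p = 0.00799), Tet3 (0.90, SE 0.18, adjusted p = 0.0214) and Uhrf1 (0.89, SE 0.12, adjusted p = 0.00733). On arrays labelled pcDNA3.1 against those of the negative control, Arid4a (0.80, SE 0.16, adjusted p = 0.0237) and Dnmt1 (0.64, SE 0.16, adjusted p = 0.0467) were higher, and Arid4b (-1.44, SE 0.20, adjusted p = 0.0105), Tet3 (-0.94, SE 0.20, adjusted p = 0.0315) and Dnmt3a (-0.83, SE 0.20, adjusted p = 0.0400) lower. Between the plasmid groups 0 were called (1 higher and 2 lower unadjusted). Over all probes, 7.29% were called higher and 4.73% lower on siRNA arrays against the negative control, and 10.4% and 8.89% against the plasmid groups. For pcDNA3.1 against the negative control these shares were 10.5% and 6.56%.

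The probes whose pattern over the 8 samples was most like that of Igf2, among 16395 named candidates, included those of Alx4 and Prrt1, with root mean square differences of 0.08 and 0.09 on the log2 scale after centring each probe. For Cdkn1c they were Ptgfrn, Tiam1 and Mark3, each at 0.07. With 8 samples in 4 groups, such likeness is a description of these arrays.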

How the data were processed

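RNA of C2C12 cells was measured on 12 single-colour Agilent arrays, 3 in each of 4 groups, read from the labelled transfection. Spot intensity came from Agilent Feature Extraction 11.0.1.1, per the file headers: the deposited processed signal is linear, background-subtracted and detrended inside each array, with no scaling across arrays. Flags of 0 or 1 in the deposited files mark spots as outlying, saturated or well above background. The deposited series table, used as an alternative, holds intensity values on a linear scale, whose scaling no source used here states. Its ranks followed those of the scanner signal on every array, with column medians of 276 to 277 and 30732 probes.

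Of 44397 spots, 1377 controls and outlier-flagged spots were left out, 0 were saturated, and spots of a probe were averaged to 39429 probes. Probe accessions were matched without versions to RefSeq symbols (27234 probes; the other 12195 kept no symbol). The table's build, GRCm38.p6, is later than the mm9 annotation named in the headers, so it served for names, chromosomes and promoters. The log2 of the processed signal had each array's 75th percentile subtracted. A probe was tested (29607 were) if some group had it well above background on all its arrays; a probe with several spots counted as such if at least 0.5 of them were.

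Replicates 1 and 3 were averaged. In 3 groups they shared a slide position and differed by 0.113 to 0.174 times the spot noise. In the negative control they lay at different positions but differed by 0.415 times that noise, against 1.93 and 2.00 for the pairs with replicate 2; replicates 1 and 2 of the other groups differed by only 0.454 to 0.497 times and were kept apart, which is an uneven treatment. Nothing in the labels makes the replicates separate cultures: the p-values rest on the spread of these samples alone, which may be technical. All 8 samples entered 1 limma 3.58.1 fit in R 4.3.3 (lmFit and eBayes, data.table package, version 1.17.8, two-sided, 4 residual and 1.9 prior degrees of freedom) with Benjamini-Hochberg adjustment over all probes, 29552 to 29599 having a p in a comparison. Precision is limited by how few arrays there are. The fit was tested on simulated data.

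The members, gene lists, tests and alternatives were chosen with earlier results of these data known. All 10 members are named with every probe; of other lists, the called genes with the largest absolute difference, at most 3 in each direction and comparison. The marker lists cover myoblasts, myotubes, fibroblasts, adipocytes and macrophages. An "at least" fold sets the brighter group's mean against a floor on each dimmer array, the lowest signal well above background there or the probe's own if higher. The alternatives were how arrays are counted, normalisation, centring, background correction, filters, probes per gene, the deposited table, the groups in the fit, a replicate block, the scan and leaving out each sample. They were followed for the member and unnamed probes and for counts over all probes, not for genes of the other lists. Replicate numbers did not pair the samples: deviations of same-numbered arrays correlated at -0.11 to 0.04. The planned normexp correction used median spot signals, and backgrounds over 10 times the array's median were set to it (0 to 18 spots an array). A gene that the rule on similar patterns names is not reported here.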

Additional observations from a re-analysis of the deposited data

How the results depend on the processing

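Called counts depended on how arrays were counted. With 12 arrays as 12 samples, 11926 probes were called for siRNA against the negative control, 15411 for siRNA against the plasmid groups, 4379 for pcDNA3.1-MEG3 against pcDNA3.1 and 14345 for pcDNA3.1 against the negative control, with 6 and 4 member genes for siRNA and pcDNA3.1 against the negative control. With 9 samples the counts were 5808, 25 and 7716 for siRNA against the negative control, the plasmid comparison and pcDNA3.1 against the negative control, the last with 4 member genes. Fitting only the groups compared gave 188, 11730 and 3694 probes for siRNA against the negative control, siRNA against the plasmid groups and the plasmid comparison, and 0 member genes in the first. Without the filter on dim probes, 2263 probes and 0 member genes were called for siRNA against the negative control, and 1 member gene for pcDNA3.1 against it. The plasmid comparison gave 11 probes with normexp and 25 with the strict filter. With scan as a block it gave 13906 probes and 1 member gene, Plagl1 (-0.57, adjusted p = 0.0240), in which rescans count as samples.

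For siRNA against the negative control, 0 member genes were called with median centring, normexp or the replicate block and 1 in the deposited series table. For pcDNA3.1 against the negative control, 1 was called with quantile normalisation, median centring or the series table, and 0 with normexp. The replicate block left 2101 probes for siRNA against the negative control and 1 between the plasmid groups. Replicate numbers did not pair the samples, so a call lost under that block is not read as a weaker effect.

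The median over all probes was 0.05, -0.12, -0.14 and 0.19 for siRNA against the negative control, siRNA against the plasmid groups, the plasmid comparison and pcDNA3.1 against the negative control, and -0.14, 0.11, -0.08 and -0.25 with median centring. Leaving out 1 sample gave 0 to 4 member genes and 2130 to 9249 probes for siRNA against the negative control, 1 to 2 member genes and 1982 to 5634 probes for siRNA against the plasmid groups, 0 probes for the plasmid comparison, and 0 to 2 member genes and 634 to 11234 probes for pcDNA3.1 against the negative control. A lone sample left in a group was assumed to vary like the others.

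Some differences changed sign in the plasmid comparison: Igf2 was -0.067 with 12 samples or scan as a block and -0.11 with normexp, Igf2r 0.030 (quantile), 0.0087 (median centring) and 0.034 (series table), and Cdkn1c -0.091 and Mest -0.13 with normexp. For siRNA against the plasmid groups, Ndn was 0.070 and Mest 0.11 with quantile normalisation, 0.11 and 0.059 with median centring, 0.076 and 0.11 with normexp, and 0.026 and 0.069 in the series table. Against the negative control with normexp, probe A_55_P1961125 was 0.15 on siRNA arrays and Igf2 0.040 on pcDNA3.1 arrays. Leaving out 1 sample moved the following brightest or unnamed probes across 0: Mest for pcDNA3.1-MEG3 against pcDNA3.1 (-0.11 to 0.21), Igf2 for pcDNA3.1-MEG3 against pcDNA3.1 (-0.14 to 0.14), Plagl1 for siRNA against the negative control (-0.22 to 1.96), A_55_P1961125 for siRNA against the negative control (-0.85 to 0.50), Igf2r for pcDNA3.1 against the negative control (-0.26 to 0.14), A_55_P1961127 for pcDNA3.1 against the negative control (-0.30 to 0.14), Peg3 for siRNA against the plasmid groups (-1.63 to 0.53) and Plagl1 for siRNA against the plasmid groups (-2.02 to 0.16). Among the other probes it did so for Plagl1 A_52_P532456 in the plasmid comparison (-0.31 to 0.72), for Plagl1 A_55_P1961965 in the plasmid comparison (-0.19 to 0.066), siRNA against the negative control (-0.017 to 0.45) and siRNA against the plasmid groups (-0.17 to 0.30), and for Mest A_55_P2151868 in siRNA against the negative control (-0.57 to 0.51), pcDNA3.1 against the negative control (-0.50 to 0.27) and siRNA against the plasmid groups (-0.88 to 0.20). No comparison is read from that Mest probe, which passed the filter on dim probes through the pcDNA3.1-MEG3 group alone. The causes of the sign changes were not tested. Of the values of each gene's brightest probe and the 2 unnamed probes under the alternatives, 465 kept direction and side of the threshold, 34 passed it, 49 lost it, 28 changed sign and 1 moved. For the other 5 probes of Plagl1 and Mest these counts were 252, 21, 3, 24 and 1, in the same order. Dim probes, such as those of Grb10 and Phlda2, could not be followed at this signal.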
